A study of Homo sapiens with 2 samples.

Results

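The miR-548 family is a group of human miRNAs whose hairpins derive from MADE1, a short DNA transposon. Its members were chosen by name, as every human entry of the array that begins with miR-548 followed by a letter. The rule used no measured value, although earlier results of these data were known when it was chosen. It gave 70 of the 2549 miRNAs on the array. None of the 70 was marked as detected by the scanner software on either of the 2 arrays, so the values below describe probe signal at background and hold no fold change for any member.

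The RNA came from exosomes, small vesicles released by cells, of FaDu, a human hypopharyngeal squamous cell carcinoma line. The comparison asks which exosomal miRNAs differ when the cells overexpress HOTTIP, a long noncoding RNA of the HOXA locus. Total exosome RNA, 200 ng for each array, was labelled with Cy3 and hybridized to 1-colour Agilent human miRNA arrays. There was 1 array for FaDu cells given an NC (control) plasmid lentivirus and 1 array for FaDu cells given a HOTTIP overexpression plasmid lentivirus, whereas the methods describe plasmids delivered with a lipid reagent. They are called the oe-NC array and the oe-HOTTIP array after their labels. The free-text description of each array names the other group. In the authors' table of normalized values, the column of each array also matches the scanner values of the other array. The titles and treatments were followed here, with the scanner values of each array. Each direction between the arrays turns round if the descriptions or the columns of that table, but not both, are right.

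MADE1 is a miniature inverted-repeat element, so a copy transcribed into RNA can fold back on itself into a nearly perfect hairpin. Drosha and Dicer can cut such a hairpin as they cut a conventional miRNA precursor, and copies spread over the primate genome gave rise to many miR-548 genes with related, A- and U-rich mature sequences. A mature miRNA recognises its target messenger RNAs mainly through its seed, bases 2 to 8 from the 5′ end, so members that share a seed share predicted targets. The family is large in number and is usually sequenced at low levels in human tissues.

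The following mature sequences show the 3 members with the highest signal on both arrays and 2 further members for each of the 2 seeds that miR-548ai and miR-548ab carry. They were taken from RefSeq on GRCh38.p14, are written 5′ to 3′, and have the seed in capitals.
miR-548ai: aAAGGUAAuugcaguuuuuccc
miR-548ag: aAAGGUAAuugugguuucugc
miR-548ba: aAAGGUAAcugugauuuuugcu
miR-548ab: aAAAGUAAuuguggauuuugcu
miR-548ar-5p: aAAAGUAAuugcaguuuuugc
miR-548b-5p: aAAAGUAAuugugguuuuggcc
miR-548m: cAAAGGUAuuugugguuuuug
The mature miR-548ai lies at chr6:99124624-99124645 on the plus strand, miR-548ab at chr3:103524085-103524106 on the minus strand and miR-548m at chrX:95063192-95063212 on the minus strand. These 3 genes lie outside the bounds of any protein-coding gene. By contrast, miR-548b-5p, at chr6:119069098-119069119 on the minus strand, lies within the bounds of FAM184A. miR-548ar-5p, at chr13:114244505-114244525 on the plus strand, lies within those of CDC16. The mature miR-548ba, at chr2:49059603-49059624 on the plus strand, lies within the bounds of FSHR. miR-548ag comes from 2 genes, at chr4:60922623-60922643 and chr20:60564565-60564585, both on the plus strand and outside protein-coding genes. Exons and introns were not analysed here, and the strand of a protein-coding gene was not compared with that of the miRNA.

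The hairpin of miR-548m shows the fold-back character of the family, with the mature miRNA in capitals.
MIR548M: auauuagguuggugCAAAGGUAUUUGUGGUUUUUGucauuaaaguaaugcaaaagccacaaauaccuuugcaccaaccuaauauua
This hairpin lies at chrX:95063141-95063226 on the minus strand and has 86 bases. From its first base, a run of 29 bases that reached into the mature miRNA was perfectly complementary to the other side of the stem.

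For the array as a whole, 328 of 2549 miRNAs (12.9%) were detected on the oe-NC array and 390 (15.3%) on the oe-HOTTIP array. Of these, 261 were detected on both arrays and 457 on at least 1, while 2092 were detected on neither. The 261 had, on the oe-HOTTIP over the oe-NC array, a median log2 ratio of unscaled intensities of 0.67. The negative control spots had an intensity of 3.87 ± 2.37 (SD, 976 spots) on the oe-NC array and 3.45 ± 2.21 (SD, 975 spots) on the oe-HOTTIP array. Among 7 miRNAs read as markers of squamous epithelial cells, 4 were detected on the oe-NC array and 5 on the oe-HOTTIP array, while all 3 markers of red blood cells and 2 of 3 markers of white blood cells were detected on both. The part of these blood-cell markers in the values was not tested. Each group had 1 array, so no p-value could be given, and precision is limited by the number of arrays. Errors are SDs over the spots that read a miRNA on 1 array, which are technical repeats. In bulk exosome RNA, fewer vesicles that carry a miRNA and less of it in each vesicle cannot be told apart.

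The count of detected members was 0 of 70 on the oe-NC array, where 12.9% of all miRNAs were detected, and 0 of 70 on the oe-HOTTIP array, where the share was 15.3%. A fold or a lower bound was given only to a miRNA detected on at least 1 array. Of the 457 such miRNAs, 33.9% were at least 2-fold higher and 25.2% at least 2-fold lower on the oe-HOTTIP array, and the family supplied 0 to either count. The intensity that the scanner software summed over the probes of a miRNA stood at its lowest value, 0.1, for all 70 members on both arrays, as it did for 2221 and 2159 of all miRNAs. These equal the numbers of undetected miRNAs on each array, so this value adds no reading apart from the detection flag. In the authors' table of normalized log2 values all 70 members were at the floor of 1e-06 in both columns, so this table holds no difference for any member either.

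The 70 members were read by 173 probes, 46 members by 2 probes each, 12 by 3, 11 by 4 and miR-548f-3p by 1, with 20 spots per member on each array. A spot was well above background in 1 of the 1351 member spots kept on the oe-NC array, against 8.33% of all kept miRNA spots there. On the oe-HOTTIP array it was 0 of the 1366 kept, against 10.4%. No member spot was saturated, and 49 of 1400 spots (3.50%) on the oe-NC array and 34 of 1400 (2.43%) on the oe-HOTTIP array carried an outlier flag and were left out, against 3.20% and 3.16% of all miRNA spots.

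The background-subtracted intensity of a member, averaged over its spots and probes, ran from -1.54 to 6.70 with a median of 0.671 on the oe-NC array. It ran from -2.15 to 4.27 with a median of 0.662 on the oe-HOTTIP array. The SD over the spots of a member had a median of 1.85 and 1.82, larger than the median intensity itself. In 18 members on the oe-NC array and 19 on the oe-HOTTIP array the mean was below 0, and a log2 value cannot be taken of these. The median of the other undetected miRNAs was itself below 0, at -0.791 and -0.572. The mean of the negative control spots was above 69 of the 70 members on each array. That mean was also above the upper quartile of the other undetected miRNAs, 0.424 and 0.632, so lying below it is not particular to the family. With a limit of 2 SD above that mean, 8.62 on the oe-NC array and 7.87 on the oe-HOTTIP array, 0 members passed on either array, against 9.53% and 13.1% of all miRNAs.

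**Figure D1:**
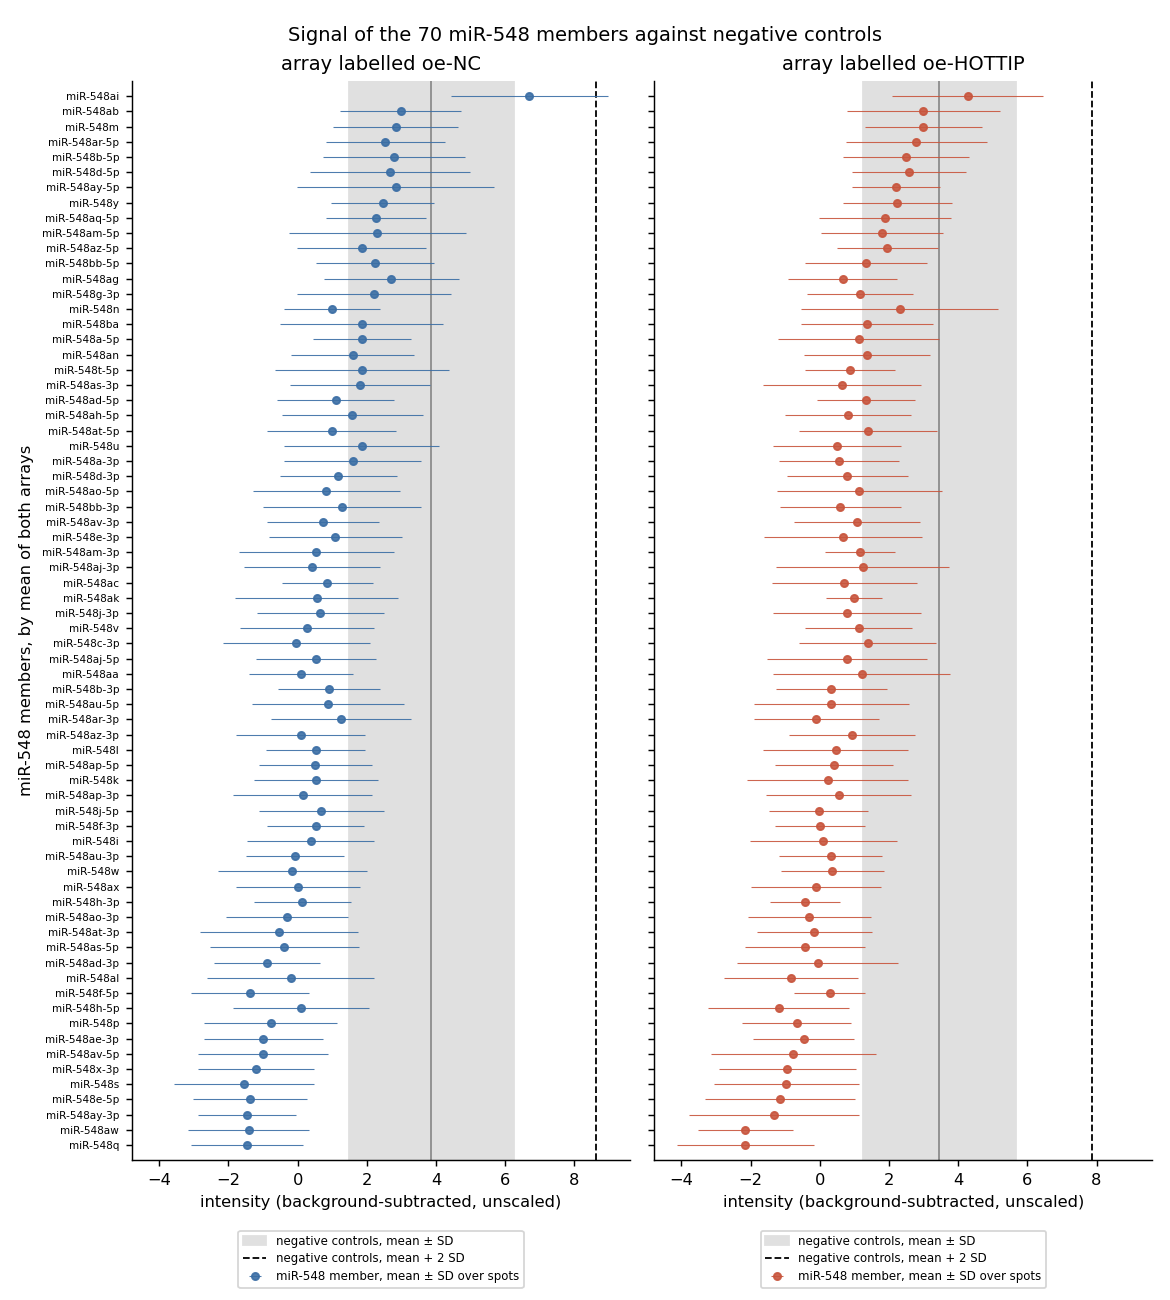
Background-subtracted, unscaled intensity of each miR-548 member (points: mean; bars: SD over spots) on both arrays, ordered by the mean of both, with the negative control spots as a grey band (mean ± SD) and a dashed line (mean + 2 SD). Only miR-548ai lay above the negative control mean, at 6.70 and 4.27, and no member reached the dashed line at 8.62 and 7.87.

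By the rule that names the 3 undetected members with the highest signal on each array, the same 3 were named on both, miR-548ai, miR-548ab and miR-548m. These signals come from different probes and do not order the amounts of the miRNAs. For miR-548ai the intensity was 6.70 ± 2.26 (SD, 20 spots, from 2.40 to 11.5) on the oe-NC array and 4.27 ± 2.18 (SD, 19 spots, from -0.049 to 8.06) on the oe-HOTTIP array. The spots of both arrays overlapped. Its 2 probes read 6.67 and 6.74 on the oe-NC array and 4.11 and 4.43 on the oe-HOTTIP array, so the probes of an array were alike. It had the highest signal of all 2221 undetected miRNAs on the oe-NC array and rank 66 of 2159 on the oe-HOTTIP array, and its spot at 11.5 was the kept spot that was well above background. The RefSeq sequence of mature miR-548ai is identical to that of miR-570-5p, a miRNA from another MADE1 copy that has no probe name of its own on the array, so a signal for one cannot be told apart from a signal for the other.

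For miR-548ab the intensity was 2.98 ± 1.74 (SD, 20 spots, from 0.161 to 5.76) on the oe-NC array and 2.99 ± 2.22 (SD, 19 spots, from -1.38 to 7.54) on the oe-HOTTIP array. For miR-548m it was 2.84 ± 1.81 (SD, 20 spots, from 0.310 to 7.13) and 2.99 ± 1.69 (SD, 19 spots, from -0.590 to 5.64). Both lay below the negative control mean on each array, and their spots overlapped between the arrays.

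The signal of the members was set beside that of other miRNAs on the same array. The 2151 other undetected miRNAs had a median intensity of -0.791 (quartiles -1.70 and 0.424) on the oe-NC array, and the 2089 on the oe-HOTTIP array had a median of -0.572 (quartiles -1.60 and 0.632). On each array 60 of the 70 members lay above this median, and the median member stood at percentile 77.7 and 74.6 of the undetected miRNAs. The detected miRNAs had a median of 17.8 and 22.5 and reached 6627 and 11436. The detection flag did not follow 1 level of signal, since 29 members on the oe-NC array and 6 on the oe-HOTTIP array lay above the dimmest detected miRNA, at 0.976 and 2.43. At the signal where 50% of the miRNAs of like rank were detected, 5.32 and 6.44, 1 member (miR-548ai) was above on the oe-NC array and 0 on the oe-HOTTIP array.

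**Figure D2:**
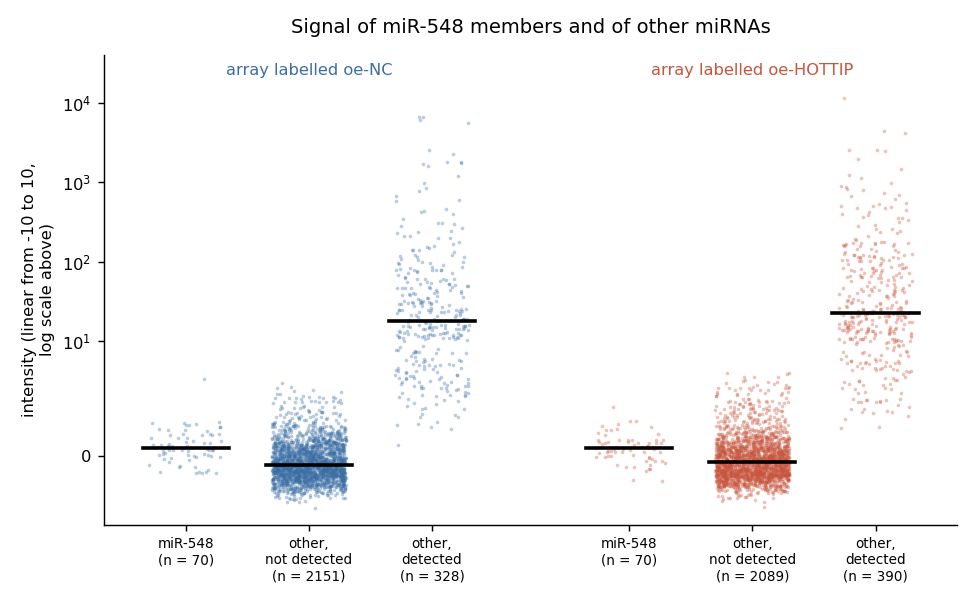
Unscaled intensity of miR-548 members, other undetected miRNAs and detected miRNAs on each array (points: miRNAs; black lines: medians), on an axis that is linear near 0 and logarithmic above 10. The family medians of 0.671 and 0.662 lay above those of the other undetected miRNAs, -0.791 and -0.572, and below the detected medians of 17.8 and 22.5.

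Between the arrays, the unscaled intensity of a member on the oe-HOTTIP array minus that on the oe-NC array ran from -2.43 for miR-548ai to 1.67 for miR-548f-5p. The median difference was -0.104 (quartiles -0.615 and 0.337), with 31 members higher and 39 lower. For the 2022 other miRNAs detected on neither array it was 0.104 (quartiles -0.430 and 0.711). For all 70 members the difference was smaller than the SD over spots of both arrays combined, which had a median of 2.72. The standard error of the difference over spots had a median of 0.611. By over 2 such standard errors, 2 members (2.86%) were higher on the oe-HOTTIP array, against 14.0% of all miRNAs detected on neither array, and 4 (5.71%) were lower, against 6.98%. These standard errors cover the spots of 1 array each and leave out the spread between cultures, extractions and arrays.

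The 2 higher members were miR-548c-3p, at -0.033 ± 2.13 and 1.38 ± 1.98 (SD, 20 spots each), and miR-548f-5p, at -1.38 ± 1.71 and 0.289 ± 1.02 (SD, 18 spots each). The 4 lower members were miR-548ai, miR-548ag, miR-548ar-3p and miR-548h-5p. Of these, miR-548ar-3p stood at 1.26 ± 2.02 and -0.099 ± 1.81 (SD, 20 spots each) and miR-548h-5p at 0.0966 ± 1.97 (SD, 20 spots) and -1.19 ± 2.03 (SD, 19 spots). The member miR-548ag, which has the seed of miR-548ai, stood at 2.71 ± 1.94 (SD, 19 spots) on the oe-NC array and 0.658 ± 1.57 (SD, 18 spots) on the oe-HOTTIP array. The differences were -2.43 with a standard error of 0.711 for miR-548ai and -2.05 with a standard error of 0.579 for miR-548ag. All of these values lay below the limit set by the negative controls of their array.

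The order of the members was alike on both arrays. Over the 70 members, the intensities of the arrays had a Pearson correlation of 0.849 (0.827 without miR-548ai) and a Spearman correlation of 0.804. The other miRNAs detected on neither array had a Spearman correlation of 0.762. The points share probes, slide and base composition, and the correlations are a description. Of the 10 members with the highest signal on each array 8 were shared, and of the 10 with the lowest signal 7 were.

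**Figure D3:**
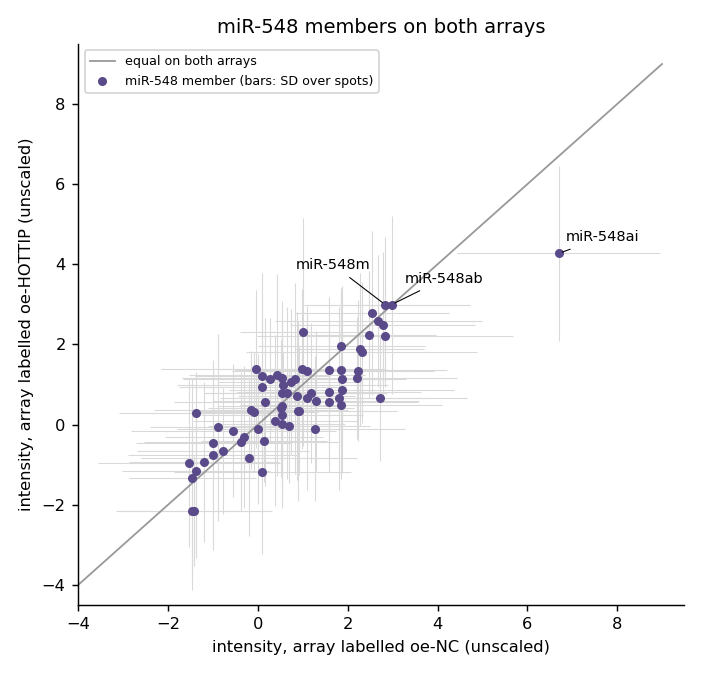
Unscaled intensity of the 70 miR-548 members on the oe-NC array (x axis) against the oe-HOTTIP array (y axis), with bars for the SD over spots and a line of equality. Members followed the line with wide bars, and miR-548ai, at 6.70 and 4.27, lay farthest below it.

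By name, 49 of the 70 members were matched to a mature sequence in the RefSeq table used here. The 21 that were not matched were miR-548a-3p, miR-548a-5p, miR-548aa, miR-548ad-5p, miR-548am-5p, miR-548ao-3p, miR-548ao-5p, miR-548ap-3p, miR-548au-5p, miR-548aw, miR-548ax, miR-548ay-5p, miR-548az-3p, miR-548az-5p, miR-548d-3p, miR-548d-5p, miR-548e-3p, miR-548h-3p, miR-548h-5p, miR-548i and miR-548v. The 49 came from 48 genes on 21 chromosomes. Of these genes, 32 lay within the bounds of a protein-coding gene and 16 did not. Position alone was compared, without the strand of the protein-coding gene, and the share among other miRNA genes was not computed. The mature miR-548f-3p has 5 genes, all with the same sequence, on the minus strand and within the bounds of a protein-coding gene. They lie at chr10:54607889-54607907 in PCDH15, chr2:212426284-212426302 in ERBB4, chr5:110513844-110513862 in TMEM232, chr7:147378041-147378059 in CNTNAP2 and chrX:32641490-32641508 in DMD.

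The matched members were 18 to 23 bases long with a median of 22. Their A+U content had a median of 65.2%, from 45.5% in miR-548q to 84.2% in miR-548f-3p, against a median of 47.8% in 2199 other miRNAs of the array with a sequence. At or above 60% A+U were 42 of 49 members (85.7%) and 360 of the others (16.4%). The following pair shows both ends of this range, with the seed in capitals.
miR-548f-3p: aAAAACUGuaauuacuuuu
miR-548q: gCUGGUGCaaaaguaauggcgg
The sequence of miR-548f-3p holds both GUAAUU and its reverse complement, AAUUAC. Its intensity was 0.527 on the oe-NC array and 0.0014 on the oe-HOTTIP array. That of miR-548q, at chr10:12725325-12725346 on the minus strand within the bounds of CAMK1D, was -1.46 and -2.15.

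Both detection and background signal moved with A+U content over the array. Of the 360 other miRNAs at or above 60% A+U, 18 (5%) were detected on the oe-NC array and 21 (5.83%) on the oe-HOTTIP array. Under 40% A+U, 141 (22.6%) and 157 (25.1%) of 625 were. The undetected others at or above 60% A+U had a median intensity of 0.415 and 0.371, and the members at or above 60% had 0.796 and 0.783. Over undetected others, the Spearman correlation of A+U content with intensity was 0.381 (1921 miRNAs) and 0.297 (1872 miRNAs), and over the 49 members it was 0.150 and 0.322, which are descriptions. The part of base composition in the signal of the family was not tested.

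**Figure D4:**
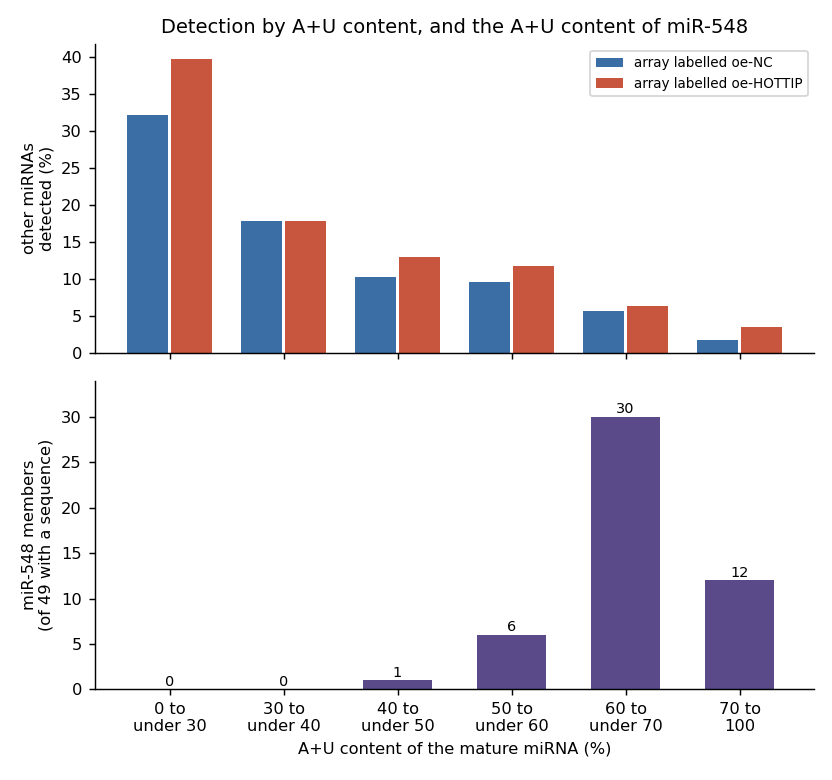
Share of other miRNAs detected on each array (upper bars, percent) and number of miR-548 members (lower bars) by A+U content of the mature sequence. Detection fell from 32.1% and 39.7% under 30% A+U to 1.72% and 3.45% at 70% and above, and 42 of the 49 members lay at 60% or above.

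By seed, the 49 members fell into 28 groups, 20 of them with 1 member, 5 with 2 and 3 with 3 or more. The largest, AAAGUAA, had 11 members, miR-548ab, miR-548ak, miR-548ap-5p, miR-548aq-5p, miR-548ar-5p, miR-548as-5p, miR-548b-5p, miR-548bb-5p, miR-548j-5p, miR-548w and miR-548y. They had a median intensity of 2.24 (from -0.380 to 2.98) on the oe-NC array and 1.34 (from -0.434 to 2.99) on the oe-HOTTIP array. The 5 members with the seed AAAAACU had medians of 0.423 and 0.785. They were miR-548ae-3p, miR-548aj-3p, miR-548am-3p, miR-548j-3p and miR-548x-3p. The 3 with AAGGUAA, miR-548ag, miR-548ai and miR-548ba, had medians of 2.71 and 1.36. All 3 group medians lay below the negative control mean of their array, and 0 members of these groups were detected. Of the other miRNAs of the array, 4 shared a seed with a member, among them miR-559 with AAAGUAA, and none of the 4 was detected on either array.

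Short stretches recurred in the mature sequences, along with their reverse complements. The letters GUAAUU, which overlap the last bases of the AAAGUAA and AAGGUAA seeds, stood in 13 of 49 members (26.5%) and 8 of 2199 other miRNAs (0.364%). The reverse complement AAUUAC stood in 8 members (16.3%) and 6 others (0.273%). Between them they covered 19 members (38.8%), with miR-548f-3p and miR-548g-3p holding both, and 30 members held neither. The members are related in sequence and the stretch overlaps seeds of their own, so its higher share among them is a description and no test. Members with GUAAUU had a median intensity of 2.20 and 1.16, and those with AAUUAC 0.475 and 0.602. The 14 other miRNAs with either stretch included both MADE1 relatives on the array, miR-570-3p and miR-603. The 3p member below holds AAUUAC, and miR-548ar-5p, printed with its seed group above, holds GUAAUU.
miR-548aj-3p: uAAAAACUgcaauuacuuuua
It comes from 2 genes on the minus strand, at chr6:132115199-132115219 outside protein-coding genes and at chrX:38023912-38023932 within the bounds of SYTL5. Its intensity was 0.423 on the oe-NC array and 1.23 on the oe-HOTTIP array.

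Of the 49 sequences, 12 were within 2 edits (a substituted, added or missing base) of another member, and the median distance to the nearest member was 3 edits. The 21 members without a sequence were left out, so a distance may be too long and a seed group too small. In RefSeq, miR-548aj-5p has the same mature sequence as miR-548g-5p and miR-548x-5p, which have no entry on the array. How far a probe also reads such near relatives was not tested.

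By arm, 23 members were named 5p, the arm at the 5′ side of the hairpin, and had a median intensity of 1.1 on the oe-NC array and 1.12 on the oe-HOTTIP array. The 24 named 3p had medians of 0.475 and 0.553, and the 23 without an arm in their name 0.535 and 0.658. The 20 hairpins with both arms on the array had 0 arms detected on either array. Since the arms are read by different probes with different base composition, these medians do not order the amounts of the arms.

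A few member spots were well above background and had been left out for an outlier flag. On the oe-NC array these were 5 spots of 5 members. Among them, 1 spot of miR-548au-5p read 2169, 1 of miR-548as-5p read 1729 and 1 of miR-548as-3p read 219, and each was marked as not uniform. The median pixel of these spots was far dimmer, at 104.5, 190.0 and 54.0 before background subtraction. With outlier spots left out the 3 members read 0.888, -0.380 and 1.81, and with them kept 121, 86.1 and 12.4. The other two spots were not marked as uneven. They were 1 spot of miR-548g-3p at 69.9, whose mean was 2.20 without and 5.60 with outlier spots, and 1 of miR-548av-3p at 20.2, whose mean was 0.730 without and 1.72 with outlier spots. On the oe-HOTTIP array the only member spot well above background was an outlier spot of miR-548ai at 11.8, and its mean was 4.27 without and 4.64 with outlier spots.

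Other human miRNAs that are known to come from transposons were read beside the family, 21 in a list of which 20 were on the array. Of the MADE1 relatives, miR-570-3p read -0.729 ± 3.25 and -0.502 ± 0.898, and miR-603 read 0.965 ± 1.89 and 1.05 ± 1.95, and neither was detected. Detected on both arrays were 3 of the 20, and on neither 16, beside 261 and 2092 of all 2549 miRNAs. The Alu-derived miR-1273f was named after its values were seen. It was detected on the oe-HOTTIP array alone, where it read 17.5 ± 3.37 against 1.16 ± 1.70 on the oe-NC array. After scaling it was 9.57-fold higher, taken against that undetected signal. The oe-NC signal lay below the negative control mean of 3.87, so 9.57-fold is not a firm lower bound. For miR-1273g-3p, which comes from an Alu element, the intensity was 465 ± 35.7 (SD, 18 spots) on the oe-NC array and 614 ± 48.1 (SD, 20 spots) on the oe-HOTTIP array. After scaling each array to its 90th percentile over miRNAs detected on both arrays, the log2 difference was -0.25 with a spread over spots of 0.16. For miR-151a-5p, from a LINE-2 element, it was 18.8 ± 6.65 and 30.4 ± 4.49 with a scaled log2 difference of 0.038 and a spread of 0.55. For miR-151a-3p, from the same hairpin, it was 8.43 ± 4.36 and 4.87 ± 2.53 with a scaled log2 difference of -1.44 and a spread of 1.06. Both MADE1 relatives on the array and all 70 miR-548 members were thus without a detection call. Of the 20 listed, 4 miRNAs from LINE-2 and Alu elements had one on at least 1 array, beside 457 of all 2549 miRNAs. The other listed entries, among them further LINE-2 and Alu miRNAs, had none. The part of the element of origin in detection was not tested.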

How the data were processed

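RNA of FaDu exosomes was measured on 2 arrays of 1 slide, 1 per group. The authors deposited the scanner output of Agilent Feature Extraction (10.10 in the submitters' processing notes, 11.5.1.1 in the file headers), with a background-subtracted intensity per spot and flags as other columns, and a normalized table on a log2 scale, of 2570 rows and with a floor of 1e-06 (GeneSpring and 90th percentile normalization in the methods). Values of that table above the floor had a median of 2.32 in the oe-NC column and 2.95 in the oe-HOTTIP column, and both column medians were at the floor. The column of each array matches the other array's scanner values, which leaves its members at the floor either way.

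Control and outlier spots were left out, spots were averaged per probe and probes per miRNA. Detection is the flag of the software. Folds, for miRNAs detected on at least 1 array, were taken as log2 after each array had been scaled to the 90th percentile of the 261 miRNAs that both arrays detected, with a threshold of 2-fold. A miRNA detected on 1 array had a bound only. It was taken against its own signal on the other array or the lowest detected signal there, whichever was higher. Where its own undetected signal was used, the bound is not firm. SDs are over spots, pooled within probes. The standard errors between the arrays were added after the data were seen. No test was run, since each group has 1 array. Negative controls gave a limit of their mean plus 2 SD. The members, lists and tests were chosen with earlier results of these data known. Named members are those detected on an array (0) and the 3 undetected ones with the highest signal on each, and of the other transposon-derived miRNAs those detected on both arrays. Other members were named after their values were seen.

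Sequences, positions and gene bounds are from RefSeq (GRCh38.p14), matched by name. The marker entry for miR-203a was read as its 2 arms. The steps were tested on simulated data. R 4.3.3 with limma 3.58.1 and Python 3.11.15 with pandas 2.3.3, numpy 2.4.6 and matplotlib 3.10.9 were used. Alternatives were other scalings, the summed intensity, normexp with an offset of 50 (on median spot signals, in place of the planned mean signals), the normalized table, other detection calls, outlier spots kept and the brightest probe.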

Additional observations from a re-analysis of the deposited data

How the results depend on the processing

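Under the 13 other settings of scaling, signal summary and detection that gave a value, the counts of members detected, at least 2-fold higher and at least 2-fold lower stayed at 0. For settings that change only the signal summary or the scaling, the detection flag is the same by construction, so those counts could not move. The summed intensity adds no call apart from that flag, and a higher floor for bounds acts only on miRNAs detected on 1 array. Only the normalized table and the call by the share of spots well above background could have moved a count. The filter on dim miRNAs left 0 members and gave no value, and the median and single log2 differences of members had no value under any of them. Chosen after the data were seen, 2 readings moved the count of members above the negative control limit on the oe-NC array. With outlier spots kept throughout it was 2 (miR-548as-5p and miR-548au-5p, limit 60.2), and with them kept in the members only it was 3 (miR-548as-3p in addition, limit 8.62), where the highest member reached 121. These rest on 1 spot in each member. On the oe-HOTTIP array the count stayed at 0. With the brightest probe the highest member read 6.74 and 4.67, below the limits. Also added after the data were seen, normexp with an offset of 50 and no detection required gave the 70 members log2 differences from -0.63 to -0.53 (median -0.57, against -0.56 over all 2549 miRNAs) with scaling, and from -0.05 to 0.054 (median 0.0086, against 0.016) without. The offset is far above every member's signal, so it keeps their differences small and a 2-fold difference out of reach by construction. The 0 members at 2-fold therefore say nothing about the family, and over all miRNAs only 0.314% were higher and 1.02% lower with scaling, and 1.33% and 0.353% without. Leaving out a replicate does not apply. No paired analysis was possible because only 1 array stood in each group. Signal over background limits every member value, so a low level of a member in these exosomes was not detectable here, which does not show that it is absent.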
